A study of Mus musculus with 2 samples.

Results

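The 28 genes described here encode the enzymes that build cholesterol, the proteins that sense and regulate sterols, and 4 proteins that move cholesterol within or out of cells. They were listed by name for their place in the pathway, with earlier results of these data known, and all 28 were found among the 43346 Ensembl mouse genes of each table, of which 21474 were protein-coding and matched to a symbol. The tissue was whole hindbrain of newborn mice (postnatal day 0) of the strain B6NTac;B6NCrl/Lap, with both sexes pooled and no treatment or engineered allele named. RNA over 200 nt was depleted of ribosomal RNA and sequenced as stranded pairs of 101 nt, in 2 libraries that form 1 group. Replicate 1 came from 15 mice, the pool size of replicate 2 is not stated, and the labels give both the same donor identifier, so part of their spread may be technical. There is no second condition to test against, and with 2 libraries the smallest p of an exact sign-flip test would be 0.5. Values are therefore given with their SD over 2 libraries and without p-values.

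Cholesterol is made from acetyl-CoA through mevalonate, isoprenoid diphosphates, squalene and lanosterol, and the enzymes after lanosterol trim and rearrange the sterol until cholesterol is reached. The blood-brain barrier keeps plasma lipoproteins out, so the brain makes its own cholesterol and spends much of it on membranes and myelin. When sterols in the endoplasmic reticulum are low, SCAP carries the SREBP transcription factors to the Golgi, where proteases release them, and the INSIG proteins hold SCAP back when sterols are plentiful.

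The stretches before the start sites of several of these genes are shown first, because SREBP is known to act there together with NF-Y, which reads CCAAT, and Sp1, which reads GGGCGG. Sequences are RefSeq promoter windows of the GRCm38.p6 build, written 5' to 3' on the gene's strand, without bases that GENCODE exons cover. Capitals mark CCAAT or its reverse complement ATTGG, and the sterol element, searched as TCACNCCAC and in a relaxed form as CACNCCA on both strands. The strict form contains the relaxed one. Hmgcs1 was taken because it held the strict form, and the others were picked after their motifs had been seen.
Hmgcs1 at chr13:119690101-119690350, plus strand: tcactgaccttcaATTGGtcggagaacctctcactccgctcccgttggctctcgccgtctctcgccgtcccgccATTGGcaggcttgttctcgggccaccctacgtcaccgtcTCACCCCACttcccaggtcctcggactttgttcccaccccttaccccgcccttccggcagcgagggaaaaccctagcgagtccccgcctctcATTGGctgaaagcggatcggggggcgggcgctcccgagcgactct
Mvk at chr5:114444061-114444268, plus strand: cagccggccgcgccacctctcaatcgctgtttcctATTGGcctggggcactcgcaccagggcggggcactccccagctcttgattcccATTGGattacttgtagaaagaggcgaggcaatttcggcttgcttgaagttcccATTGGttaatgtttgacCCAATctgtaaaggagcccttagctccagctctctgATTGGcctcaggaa
Mvd at chr8:122443423-122443672, minus strand: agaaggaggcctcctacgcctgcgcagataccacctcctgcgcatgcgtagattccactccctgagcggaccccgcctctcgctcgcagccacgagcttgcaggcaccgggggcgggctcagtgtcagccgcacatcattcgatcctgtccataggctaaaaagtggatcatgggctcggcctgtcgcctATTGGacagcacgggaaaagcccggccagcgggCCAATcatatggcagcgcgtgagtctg
Nsdhl at chrX:72918412-72918520, plus strand: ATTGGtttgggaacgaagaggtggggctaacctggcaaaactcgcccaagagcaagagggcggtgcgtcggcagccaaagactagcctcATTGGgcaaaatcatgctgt
Srebf2 at chr15:82147019-82147180, plus strand: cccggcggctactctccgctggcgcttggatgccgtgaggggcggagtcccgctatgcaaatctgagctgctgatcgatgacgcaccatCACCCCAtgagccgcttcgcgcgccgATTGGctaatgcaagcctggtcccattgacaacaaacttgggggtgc
Srebf1 downstream start at chr11:60210472-60210721, minus strand: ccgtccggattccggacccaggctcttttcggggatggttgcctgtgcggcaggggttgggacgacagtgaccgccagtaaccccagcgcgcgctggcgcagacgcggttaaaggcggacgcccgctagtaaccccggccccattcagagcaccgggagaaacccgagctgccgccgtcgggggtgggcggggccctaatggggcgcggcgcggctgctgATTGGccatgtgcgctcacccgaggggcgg
Srebf1 upstream start at chr11:60220628-60220877, minus strand: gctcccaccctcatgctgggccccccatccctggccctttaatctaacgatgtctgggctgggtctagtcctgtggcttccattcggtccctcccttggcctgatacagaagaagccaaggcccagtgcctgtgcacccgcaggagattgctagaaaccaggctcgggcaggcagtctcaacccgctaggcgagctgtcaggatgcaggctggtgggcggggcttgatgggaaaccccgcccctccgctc

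RefSeq windows from 250 bases before to 50 after the start were matched for 23 of the 28 genes, with 31 windows in all. Fdft1, Fdps, Npc1, Sqle and Stard4 had none in the table. CCAAT stood in a window of 19 of 23 genes (82.6%), against 43.0% of 9225 detected protein-coding genes and 41.1% of all 27025 genes with a window. Counted over windows rather than genes, it was in 20 of 31 (64.5%), against 37.4% of all 32851 windows. A window counted whether or not its start was in use here. The Insig2 matches lay before the start of Insig2-202, at 0 TPM in both libraries, and the window of Insig2-201 held none. The only Pmvk match lay before a start at 89454541, while Pmvk-201, with 99.5% and 99.6% of the gene's TPM, begins at 89459118. CCAAT lay on the strand opposite to the gene in 28 of its 41 matches (68.3%), against 50.9% of matches over all windows. Matches within 1 window are not independent, and Mvk alone gave 4 of the 28. At least 2 matches in 1 window were found in 11 of 23 genes (47.8%), against 16.9% of detected coding genes and 13.3% of all genes. GGGCGG was in a window of 21 of 23 genes (91.3%), against 71.5% of detected coding genes and 38.2% of all genes. The strict sterol element was found in 1 gene of 23, Hmgcs1, with its first base 137 bases before the start, against 1.44% of all genes. The relaxed form was in 7 of 23 (30.4%), namely Acat2, Hmgcs1, Insig1, Insig2, Lpin1, Msmo1 and Srebf2, against 20.6% of all genes. These matches describe letters in a window and are not evidence of binding.

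**Figure D1:**
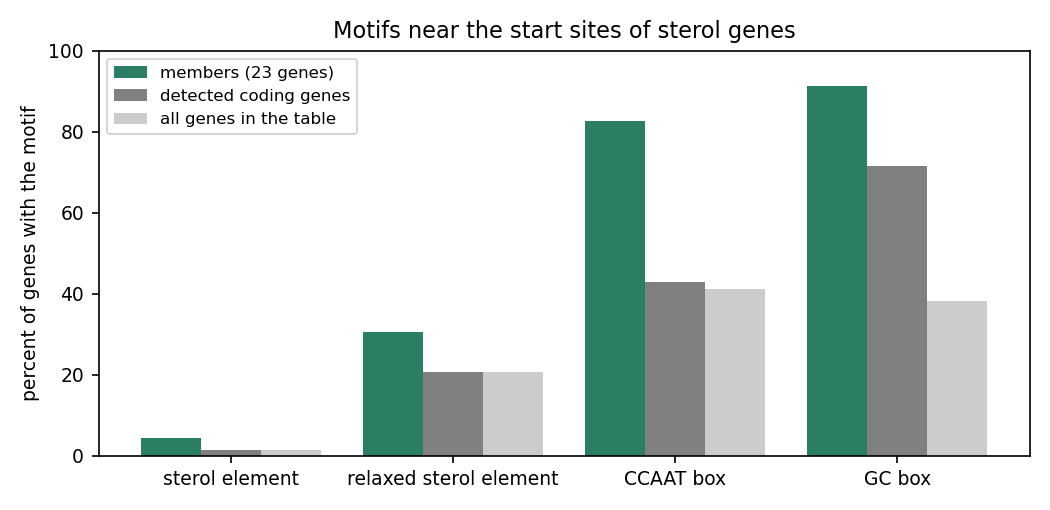
Percent of genes with each motif on either strand from 250 bases before to 50 after a RefSeq start, for the 23 matched sterol genes, detected protein-coding genes and all genes with a window. The bars for the CCAAT box read 82.6%, 43.0% and 41.1%, and those for the GC box (GGGCGG) 91.3%, 71.5% and 38.2%.

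Levels are given as TPM, a unit that is corrected for length and has a fixed sum, so that genes can be compared with each other. A gene was called detected at 1 TPM or more in both libraries. All 28 genes were detected, against 54.7% of the 21474 coding genes. At 10 TPM or more in both libraries there were 18 of 28, against 19.1% of coding genes. On the log2(mean TPM + 0.1) scale the median level of the 28 was 4.03 (4.18 in replicate 1 and 3.91 in replicate 2), against 3.04 for the 11737 detected coding genes, and 22 of 28 lay above that median. The 28 genes summed to 710 TPM in replicate 1 and 509 in replicate 2. Lpin1 and Stard4 were the only members below the lower quartile of detected coding genes, at the 22.9th and 13.2th percentile. In whole tissue, fewer cells of a type and less RNA per cell cannot be told apart.

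**Figure D2:**
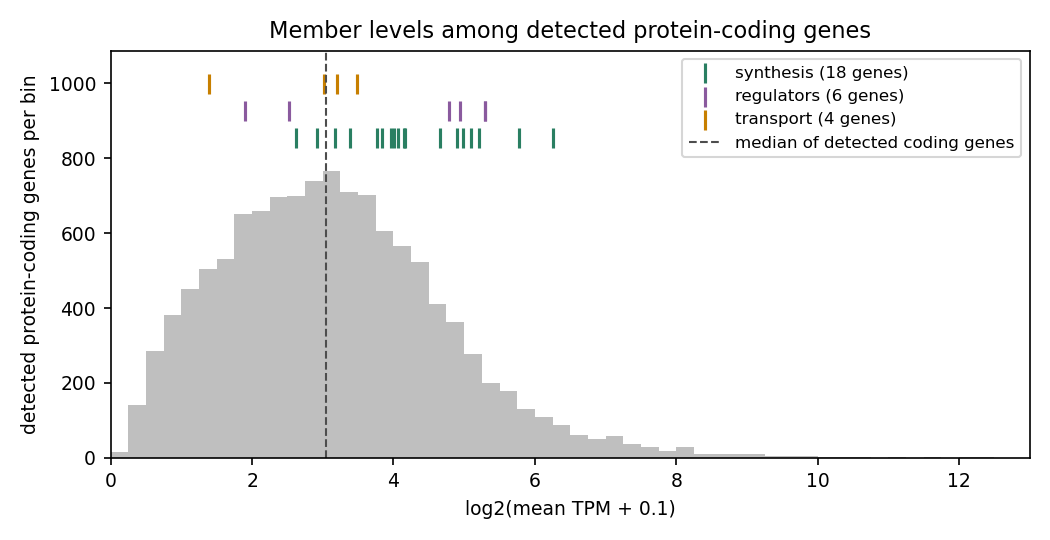
Histogram of log2(mean TPM + 0.1) over the 11737 detected protein-coding genes in bins of 0.25, with a tick for each sterol gene by class (18 synthesis enzymes, 6 regulators, 4 transport proteins). The dashed line is the median of the detected coding genes, 3.04; 22 of 28 ticks lie to its right.

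Most TPM values were lower in replicate 2, for these genes as for others. The median log2 TPM ratio of replicate 2 over replicate 1 was -0.52 over detected coding genes and -0.46 over the 28, and 26 of the 28 were lower. TPM has a fixed sum, of which coding genes held 296031 in replicate 1 and 204697 in replicate 2, and the rest fell mainly on short non-coding RNAs. Of the 5 highest genes, Rn7sk (166077 and 366321) and Rpph1 (45758 and 81372) were higher in replicate 2, and Rmrp (153233 and 48373), Rn7s1 and Rn7s2 (each 126162 and 121807) were lower. The SD of a TPM value therefore includes this common shift, which leaves ratios of genes within a library untouched. Changes between the libraries were read from counts scaled with TMM (trimmed mean of M-values), in which the median over all counted genes was 0.01.

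The first enzymes of the pathway were among the highest. Acat2, the cytosolic thiolase that joins acetyl-CoA units, stood at 43.1 and 30.6 TPM (36.8 ± 8.88, SD, n = 2). Hmgcs1, which makes HMG-CoA, stood at 67.1 and 42.5 TPM (54.8 ± 17.4). It lies on chromosome 13 at 119690379 to 119708260, had the highest counts of the 28 (mean 18332), and is the gene with the strict sterol element shown above. Mvk, the kinase that takes mevalonate next, followed at 40.7 and 27.6 TPM (34.1 ± 9.28). Hmgcs1 was 1.65-fold above Mvk in replicate 1 and 1.54-fold in replicate 2, a log2 difference of 0.67 ± 0.07. The later 2 enzymes of the mevalonate steps were lower and close to each other. Mvd, which removes a carboxyl group to give isopentenyl diphosphate, was at 18.7 and 17.1 TPM (17.9 ± 1.12), and overlaps the coding gene Gm20388 on the opposite strand (16.3 and 13.6 TPM). Pmvk, which adds the second phosphate, was at 20.7 and 12.5 TPM (16.6 ± 5.78), and it lay above Mvd in replicate 1 and below it in replicate 2. All 4 mevalonate genes were at 10 TPM or more in both libraries.

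The isoprenoid steps were uneven. Fdps, which condenses isoprenoid units into farnesyl diphosphate, was the highest of the 28 at 93.5 and 59.8 TPM (76.6 ± 23.8), at the 96.3th percentile of detected coding genes. Idi1, the isomerase just before it, was at 11.2 and 9.50 TPM (10.4 ± 1.23). Fdps thus exceeded Idi1 by 8.32-fold and 6.29-fold, a log2 difference of 2.86 ± 0.28. Both genes had counts that were not whole, as had Acat2 and Tm7sf2, which shows that reads were divided with other genes. Fdps also overlaps the gene model Gm43738 on its own strand.

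At the branch to sterols, Sqle, the squalene epoxidase that is a known control point, was at 37.0 and 26.3 TPM (31.7 ± 7.59). Fdft1, the squalene synthase that acts before it, was at 17.5 and 13.6 TPM (15.6 ± 2.76). Sqle was the higher in both libraries, by 2.11-fold and 1.93-fold, a log2 difference of Fdft1 over Sqle of -1.01 ± 0.09. Lss, which closes squalene epoxide into lanosterol, was at 15.4 and 13.0 TPM (14.2 ± 1.65). By whole-gene TPM it was lower than Cyp51, the enzyme that acts on its product, by 0.82 ± 0.12 on the log2 scale. By coding transcripts alone Lss was at 11.0 and 7.39 TPM, against 28.5 and 21.2 TPM for Cyp51. Fdft1 overlaps Ctsb on the opposite strand (53.9 and 36.8 TPM), and no source used here says if strand was used in counting.

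The 8 enzymes after lanosterol spanned 29.7 to 6.08 mean TPM, and 5 of them reached 10 TPM in both libraries. Tm7sf2, a sterol reductase, led by whole-gene TPM at 35.1 and 24.3 (29.7 ± 7.61). It shares its strand with the overlapping gene Vps51 (29.8 and 20.3 TPM). Cyp51, the lanosterol demethylase, was at 28.8 and 21.8 TPM (25.3 ± 4.97), and overlaps Akap9 on the opposite strand. By coding transcripts alone Cyp51 (28.5 and 21.2 TPM) was above Tm7sf2 (27.4 and 19.2 TPM) in both libraries. The enzymes that then strip the remaining methyl groups were lower one after the other. Msmo1, a methyl sterol oxidase, was at 18.7 and 16.4 TPM (17.6 ± 1.59). Nsdhl, the dehydrogenase that follows it, was at 9.94 and 7.87 TPM (8.91 ± 1.46). Hsd17b7, the ketoreductase of the same complex, was by whole-gene TPM the lowest of all 18 synthesis enzymes at 6.51 and 5.65 TPM (6.08 ± 0.608). The last steps were carried by Ebp, Sc5d and Dhcr7. Ebp, the sterol isomerase, was at 7.03 and 7.92 TPM (7.48 ± 0.629). Sc5d, the desaturase, was at 15.4 and 11.5 TPM (13.5 ± 2.74). Dhcr7, the reductase whose loss in people causes Smith-Lemli-Opitz syndrome, was at 15.5 and 16.4 TPM (15.96 ± 0.665). Dhcr7 and Ebp were the only members with a higher whole-gene TPM in replicate 2. By coding transcripts alone Ebp was lower there (5.67 and 3.99 TPM), and Dhcr7 was at 11.9 and 12.6. Ebp then lay below Hsd17b7 (5.8 and 4.98 TPM) in both libraries. Dhcr7 exceeded Ebp by 2.20-fold and 2.07-fold.

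**Figure D3:**
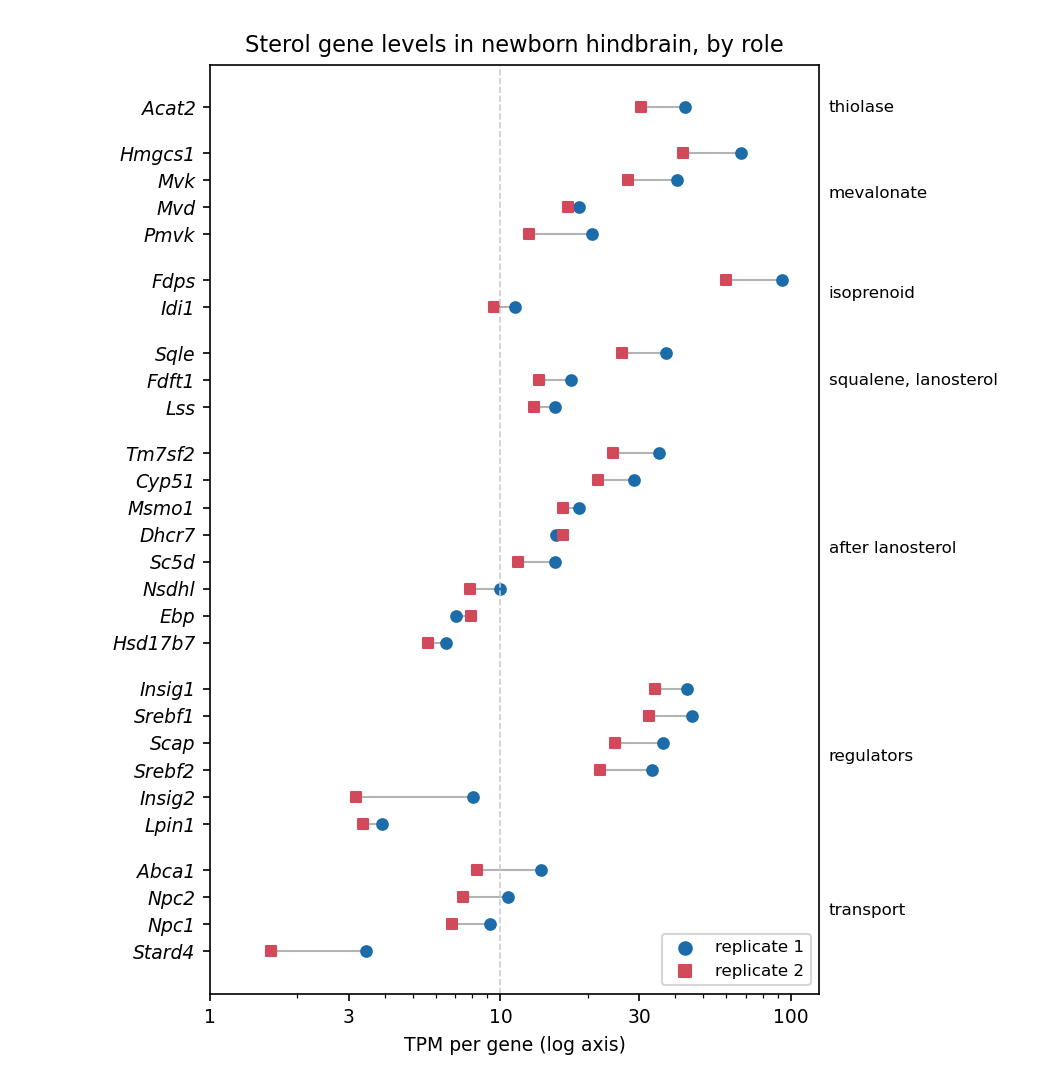
TPM of each of the 28 genes on a log axis, grouped by role; circles are replicate 1, squares replicate 2, a grey line joins the libraries and the dashed line marks 10 TPM. Fdps is the highest in both libraries (93.5 and 59.8) and Stard4 the lowest (3.44 and 1.62); 26 of 28 squares lie left of their circles.

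Among the regulators, 4 of 6 were high and 2 low. Srebf1, which encodes SREBP-1, was at 45.6 and 32.5 TPM (39.1 ± 9.31), and Insig1 at 44.0 and 34.1 TPM (39.1 ± 7.01), and their order switched between the libraries. Scap, the sterol-sensing escort, was at 36.3 and 24.9 TPM (30.6 ± 8.08), below Insig1 in both. Srebf2, which encodes SREBP-2, the main activator of the synthesis enzymes, was at 33.1 and 22.0 TPM (27.5 ± 7.91). Insig2, the other INSIG protein, was far lower at 8.05 and 3.19 TPM (5.62 ± 3.44). Lpin1, a phosphatidate phosphatase known to restrain nuclear SREBP, was at 3.91 and 3.36 TPM (3.64 ± 0.389). Insig1 exceeded Insig2 by 5.47-fold in replicate 1 and 10.7-fold in replicate 2, a log2 difference of 2.93 ± 0.68.

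None of the 4 transport genes reached 10 TPM in both libraries, and 2 of the 4, Abca1 and Npc2, lay above the median of detected coding genes. Abca1, the efflux pump that loads cholesterol on apolipoproteins, was at 13.8 and 8.33 TPM (11.07 ± 3.87). Npc2 and Npc1, the soluble and membrane proteins that hand cholesterol out of lysosomes, were close to each other. Npc2 was at 10.7 and 7.46 TPM (9.06 ± 2.26) and Npc1 at 9.19 and 6.80 TPM (7.995 ± 1.69), a log2 difference of 0.17 ± 0.06. Npc1 overlaps Rmc1 on the opposite strand. Stard4, which shuttles sterols through the cytosol, was the lowest of the 28 at 3.44 and 1.62 TPM (2.53 ± 1.29). Abca1 exceeded Stard4 by 4.01-fold and 5.14-fold.

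Placed in order of mean TPM, 15 of the 27 neighbouring pairs were told apart, meaning that their log2 difference had 1 sign in both libraries and exceeded its SD. With 2 libraries this describes the order seen and is no test, since pairs that do not differ can also meet it. Whole-gene TPM kept 1 order in both libraries from Fdps through Hmgcs1 to Insig1, and from Srebf1 through Acat2, Mvk, Sqle, Scap and Tm7sf2 to Srebf2. Some of these steps were small, such as 0.04 ± 0.01 on the log2 scale between Scap and Tm7sf2. Coding transcripts alone gave another order in places. Srebf1 (32.3 and 24.3 TPM) then lay below Acat2, Mvk, Sqle and Scap in both libraries. Tm7sf2 (27.4 and 19.2 TPM) lay below Srebf2 and Cyp51, and Ebp lay below Hsd17b7. The stretch from Mvd through Msmo1, Pmvk and Dhcr7 to Fdft1 had no pair of neighbours that could be told apart. The same held for Srebf2 and Cyp51, for Lss and Sc5d, for Abca1 and Idi1, for Npc2 and Nsdhl, for Npc1 and Ebp, and from Hsd17b7 through Insig2 to Lpin1. All 10 pairs set side by side differed beyond that spread at the level of whole genes.

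The comparison of Srebf1 with Srebf2 turned on which transcripts were counted. Srebf2 had 1 transcript, Srebf2-201, with 100% of its TPM. Srebf1 was divided over 12, and its top transcript, Srebf1-207, held 33.0% and 35.1%. Srebf1-207 begins at the downstream start, whose first exon is known for the SREBP-1c form, while Srebf1-201 begins at the upstream start known for SREBP-1a and held 17.1% and 7.86%. Transcripts that begin elsewhere in the gene held 49.96% and 57.0%, led by the coding Srebf1-203 (20.8% and 31.8%) and by Srebf1-211, which is not annotated as coding (16.5% and 16.4%). By whole genes, Srebf1 was 1.38-fold and 1.48-fold above Srebf2. By coding transcripts alone the log2 ratio of Srebf2 over Srebf1 was 0.04 in replicate 1 and -0.14 in replicate 2, which is within their spread (-0.05 ± 0.13). By the top transcript of each, Srebf2 was 2.20-fold and 1.93-fold above Srebf1. In the downstream window printed above, 1 CCAAT stood on the opposite strand 30 bases before the start, and the printed upstream window held none. Another window, farther upstream and not printed, held 1 on the gene's strand 166 bases before its start. Srebf1 also overlaps Rai1 on the opposite strand (25.2 and 13.3 TPM).

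The 28 genes had 123 transcripts in all, and for 28 of 28 the same coding transcript led in both libraries, against 82.5% of detected coding genes. It held at least 95% of the gene's TPM in both libraries for 15 genes (53.6%), against 36.6% of detected coding genes. Fdft1, Fdps, Hmgcs1, Insig1 (Insig1-201), Mvd, Npc2, Scap and Srebf2 had only 1 transcript, which holds 100% by definition. For them both results were fixed in advance, and no share could move. Neither background was matched for the number of transcripts or for counts, so neither comparison sets the 28 genes apart. For Lpin1, Lpin1-201 held 78.4% and 71.5%. The share moved by over 20 percentage points in 3 genes, Ebp, Insig2 and Stard4 (10.7% of 28, against 15.2% of detected coding genes). Insig2-201 held 47.5% in replicate 1 and 88.1% in replicate 2. The 478-nt coding transcript Insig2-212 took 39.9% in replicate 1 from an estimated 43.3 fragments and 2.97% in replicate 2 from 2.86. Stard4-201 held 49.3% and 96.5%, with 26.3% and 3.53% assigned to the retained-intron transcript Stard4-204.

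These shares set the TPM of both genes, since a short transcript counts for more TPM per fragment. Insig2 had a TPM 2.52-fold lower in replicate 2, yet scaled counts of 14.8 and 14.9 CPM, a log2 ratio of 0.00. Its effective length, the mean over transcripts weighted by share, differed by 0.83 on the log2 scale. Stard4 had a TPM 2.12-fold lower and scaled counts of 14.0 and 16.3 CPM (log2 ratio 0.22), with an effective length that differed by 0.80. The TPM of Insig2 in replicate 2, 3.19, lay outside the deposited interval of 3.55 to 4.95, the only such case among the 28 genes. The difference between Insig1 and Insig2 was steadier by top transcripts, at 11.5-fold and 12.1-fold (log2 3.56 ± 0.05).

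**Figure D4:**
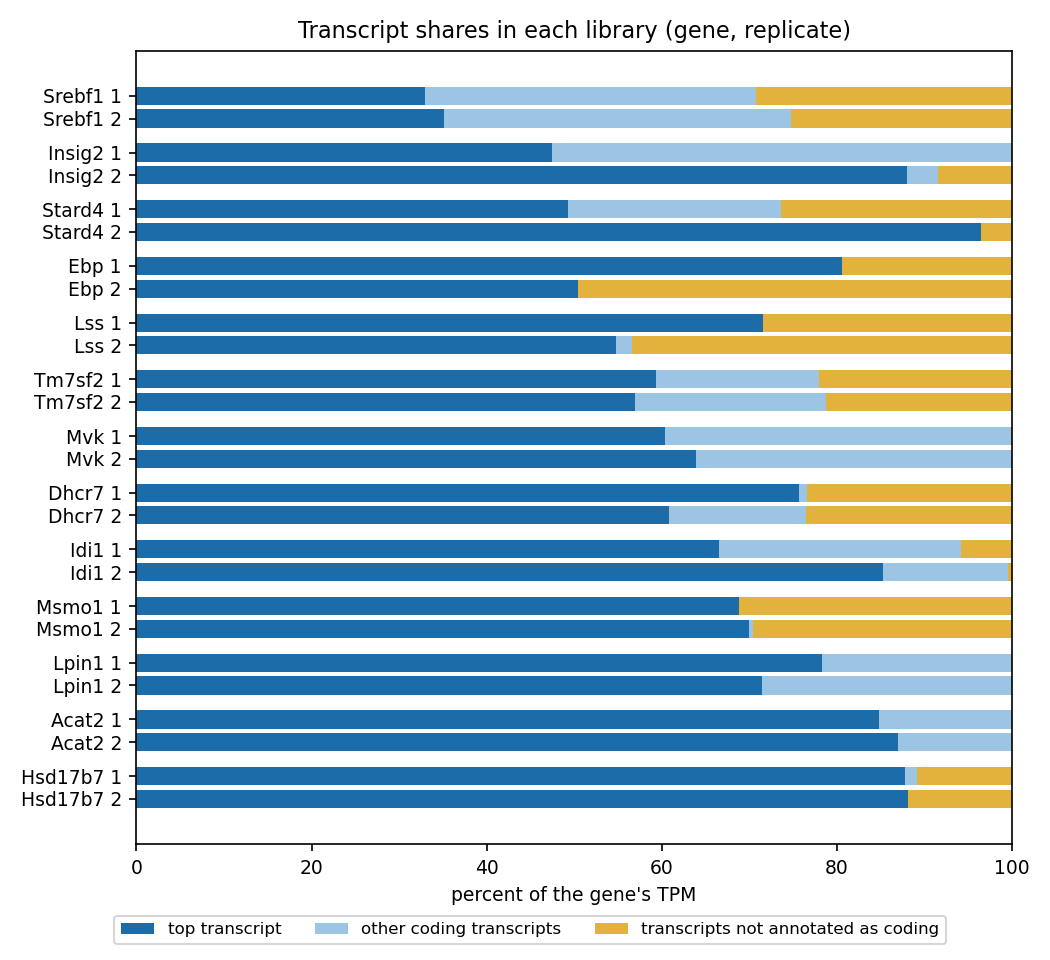
Share of each gene's TPM, in percent, held by its top transcript, by other coding transcripts and by transcripts not annotated as coding, with 1 bar per library (gene and replicate number at the left), for the 13 genes whose top transcript held under 90% in a library. Insig2 and Stard4 change most between replicates 1 and 2, while the top transcript of Srebf1 holds 33.0% and 35.1%.

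In all, 5 of 28 genes (17.9%) had over 20% of their TPM in transcripts not annotated as coding in both libraries, against 15.8% of detected coding genes. They were Dhcr7, Lss, Msmo1, Srebf1 and Tm7sf2. In the following genes, chosen after their values were seen, the division differed between the libraries. Lss-201 held 71.6% and 54.8%, with 28.4% and 43.3% in non-coding transcripts. Ebp-201 held 80.6% and 50.4%, and the retained-intron transcript Ebp-204 took 19.4% and 46.1%. In Idi1, Idi1-201 held 66.6% and 85.3%. Total RNA includes unspliced molecules, and their part in these shares was not tested.

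Between the libraries, the scaled counts of the sterol genes differed little. The log2 ratio of replicate 2 over replicate 1 ranged from -0.22 (Abca1, 209.9 and 179.8 scaled CPM) to 0.54 (Idi1, 33.5 and 48.8), with a median of 0.08. None of the 28 was over 1.5-fold higher in replicate 2, against 14.7% of the 17629 genes whose mean count was 10 or more, and none was over 1.5-fold lower, against 9.88%. These genes are well counted, with mean counts from 955.5 to 18332. Among the 10918 genes whose mean count was 500 or more the shares were 2.80% and 1.78%, a background added after seeing the data, so a count of 0 of 28 does not set them apart. The median size of the log2 ratio was 0.13 for the 28 and 0.15 for those 10918 genes.

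By role, the ratios are given as counts, and differences between roles were not tested. A ratio above 0 was found for 8928 of the 17629 counted genes and for 19 of the 28. Of the 8 enzymes after lanosterol, 7 had a ratio above 0, with a median of 0.24, led by Msmo1 (0.44) and Dhcr7 (0.40), and Tm7sf2 (-0.00) was the exception. Among the 4 mevalonate genes 1 had a ratio above 0, Mvd at 0.39. Of the 6 regulators, Srebf2 (-0.08) and Scap (-0.04) were below 0. In the fatty acid list, which SREBP-1 is known to serve, 1 of 12 was above 0, with a median of -0.12. Beside these, 7 of 8 counted myelin markers had a ratio above 0 (median 0.36), as had 3 of 4 microglia markers (0.15) and 3 of 5 astrocyte markers (0.00). All 4 neuron markers (median -0.12) and all 3 endothelium markers (-0.13) were below 0 under TMM scaling. The part of cell composition in these ratios was not tested. Scaling by spike-in totals moved the median of all genes to 0.11 and gave 8 of 8 late enzymes and 5 of 12 fatty acid genes above 0. With that median most genes lay above 0, and their share was not counted. No ratio here can be tested with 1 library on each side.

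**Figure D5:**
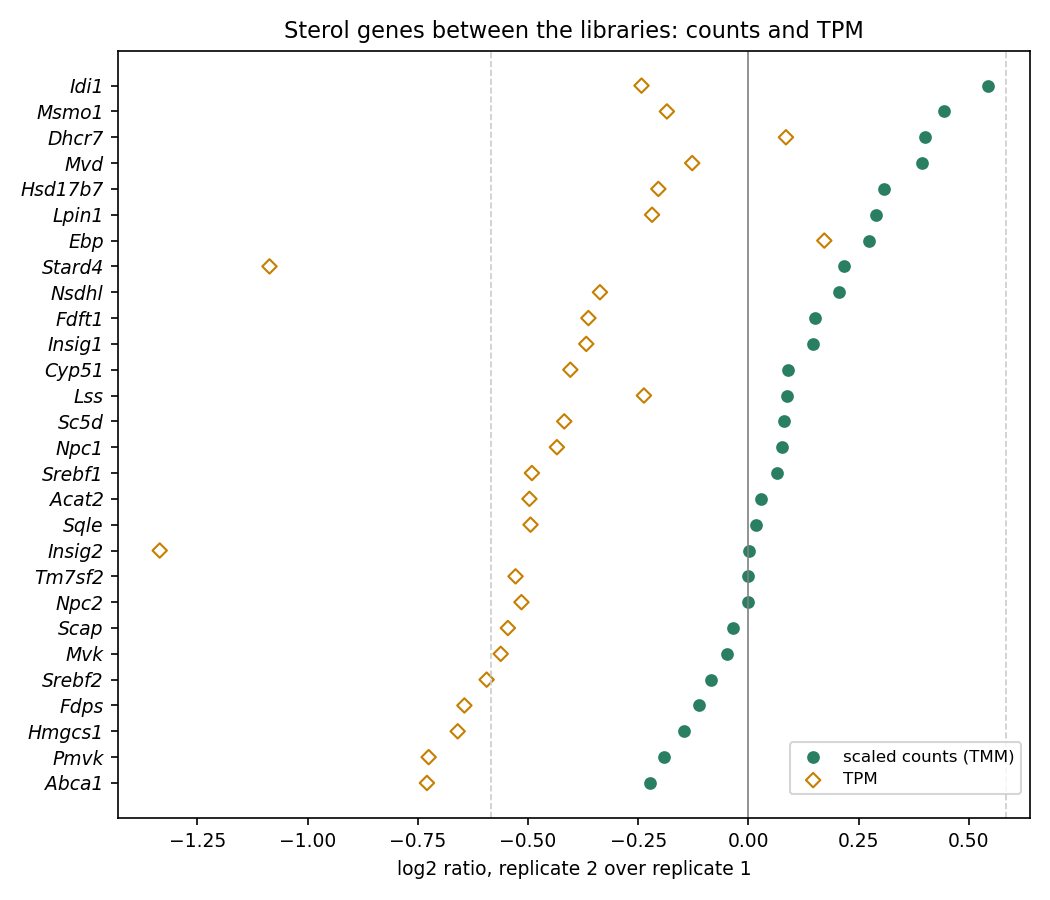
Log2 ratio of replicate 2 over replicate 1 for each gene, from TMM-scaled counts (filled circles) and from TPM (open diamonds), with dashed lines at 1.5-fold either way and genes ordered by the count ratio. All circles lie between -0.22 and 0.54; the diamonds of Insig2 (-1.34) and Stard4 (-1.09) lie farthest left.

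Other lipid genes of the same libraries were read from 4 lists, in which 41 of 45 genes were detected. Among 20 genes of sterol handling 19 were detected, with a median log2 level of 3.58. Apoe, the main lipoprotein component made by glia, stood at 578 and 476 TPM (527 ± 72.4), above each of the 28. Lrp1, a receptor for it, was at 57.9 ± 15.2 TPM, and Gramd1a, which moves sterol from the plasma membrane, at 48.3 ± 10.3. The lowest were Stard5 (1.58) and the liver X receptor Nr1h3 (1.07). All 12 genes of fatty acid synthesis were detected, with a median of 4.62, and Scd2 (191 ± 64.0 TPM), Fads2 (100.2 ± 29.7) and Fasn (100.03 ± 26.6) exceeded every sterol gene. The lowest of that list were Elovl6 (9.01) and Me1 (8.77).

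Genes that use isoprenoids were detected in 7 of 7, with a median of 2.94. Fnta, a prenyltransferase subunit, was the highest at 14.3 TPM, followed by Ggps1 (12.4) and Dhdds (10.8), and the lowest were Pdss1 (2.90) and Pggt1b (2.08). Oxysterol enzymes were the least abundant list, with 3 of 6 detected and a median of -0.10. Cyp46a1, the neuronal enzyme that clears brain cholesterol, was at 9.96 and 5.69 TPM (mean 7.83), followed by Hsd3b7 (3.04) and Cyp7b1 (1.73). Ch25h (0.325) and Cyp39a1 (0.310) were the lowest. Cyp27a1, at 0.22 and 0.54 TPM from 10 and 62 counts, was the only gene of the list over 1.5-fold higher in replicate 2.

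The tissue label was checked against marker lists. Of 10 hindbrain markers 10 were detected, with Zic1 at 71.9 TPM, and of 7 forebrain markers 2 were, Lhx2 and Neurod6, with Dlx5, Dlx6 and Rax at 0. Myelin markers were detected in 7 of 9, summing to 112 and 101 TPM, and Opalin was at 0 in both libraries and Mog in replicate 1. Liver markers, whose tissue also makes cholesterol, were detected in 1 of 5 (Ttr, also a choroid plexus gene), and steroid-gland markers in 0 of 3. The libraries held 53617723 and 76299141 counts on mouse genes. They did not agree within counting noise (chi-square per degree of freedom 100.7 over 18497 genes), so they were counted as 2 libraries and not as 1 deposited again.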

How the data were processed

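Per the file headers, the authors deposited expected counts (estimated fragment counts per gene and transcript), TPM, FPKM, percent of the gene's TPM per transcript, and interval bounds around TPM, held here as a score because their level is not stated. Per the deposited file notes the genome build was mm10 with GENCODE M4. The aligner, the quantifier and the use of strand were not given in the sources used here. Gene IDs were matched to symbols of GENCODE M21 on the same build (98.0% of 43346). The 28 genes and every list were chosen with earlier results of these data known.

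The total expected counts were 54313140 and 77142270. Counts were rounded and scaled with TMM (edgeR 4.0.16, R 4.3.3; prior count 2), fitted on all mouse genes. Levels used TPM with a pseudocount of 0.1, and detection a TPM of 1 in both libraries. The ratio step was run on simulated counts with counting noise alone, while the real libraries differed by more than that. The simulation therefore checked the calculation and not the spread of the ratios. All 28 genes are named; of each other list, the 3 highest, the 2 lowest and those past 1.5-fold; transcripts that switch or hold under 50%, and those of Srebf1, Srebf2, Insig1, Insig2 and Lpin1. Alternatives were DESeq2 1.42.0 size factors, total counts, spike-in totals, FPKM, posterior mean TPM, rescaled TPM, other pseudocounts, thresholds and filters, and 1 library at a time. Motif searches and figures used Python 3.11.15 with matplotlib 3.10.9.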

Additional observations from a re-analysis of the deposited data

How the results depend on the processing

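The median log2 level of the 28 genes was 4.03, ranged from 3.91 to 4.18 when either library was left out, and was 4.87 on the FPKM scale and 6.13 after TPM was rescaled over nuclear protein-coding genes, both changes of unit. The median log2 ratio between libraries, 0.08 with TMM, DESeq2 size factors or total counts, was 0.18 with spike-in totals and reversed to -0.46 with deposited TPM, whose fixed sum shifts most genes. The number over 1.5-fold higher in replicate 2 went from 0 to 1 (Idi1) with spike-in totals and to 4 at a lower fold threshold, and the number lower went from 0 to 7 with deposited TPM. Motif genes for the sterol element went from 1 to 7 with the relaxed form. The log2 ratio of Srebf2 over Srebf1 reversed from -0.51 to 1.04 with top transcripts, an alternative chosen after seeing the data. The other pair ratios kept their sign with it, and some moved beyond their SD. Cyp51 over Lss went from 0.82 to 1.47, Hmgcs1 over Mvk from 0.67 to 1.36 and Abca1 over Stard4 from 2.18 to 2.72. Fdps over Idi1 went from 2.86 to 3.26 and Dhcr7 over Ebp from 1.10 to 1.19. Insig1 over Insig2, Npc2 over Npc1, Scap over Insig1 and Fdft1 over Sqle stayed within their SD. The number at 10 TPM or more in both libraries, 18, was 27 with rescaled TPM, and 18 and 21 when 1 library was left out. The count of detected genes was 28, and 27 at a threshold of 2 TPM. For these alternatives the share of all coding genes was not counted. No paired analysis was possible because the series has 1 group. Precision at the level of transcripts was limited by few fragments in places: Insig2-212 rested on 43.3 and 2.86, the lower value in the deeper library.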

Other observations

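The following were noticed in the data and are given as values. The Mvk window holds 4 matches to ATTGG with their first bases 173, 120, 67 and 14 bases before the start, each 53 bases from the next, while the stretches between them share 26.4% to 32.1% of their bases. Another match, CCAAT on the gene's strand, begins 50 bases before the start.

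Of the 28 genes, 4 have a coding neighbour that starts within 1000 nt on the opposite strand and points away, against 9.76% of detected coding genes. Mvk stands 209 nt from Mmab, which was at 9.38 and 7.68 TPM where Mvk was at 40.7 and 27.6. Dhcr7 stands 296 nt from Nadsyn1 (2.42 and 2.04 TPM). Nsdhl stands 146 nt from Cetn2 (5.78 and 3.83 TPM). Npc2 stands 99 nt from Isca2, which was at 9.61 and 10.9 TPM, so that Npc2 was the higher in replicate 1 and the lower in replicate 2.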
